A study of Rattus norvegicus with 26 samples.

Results

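The caveolins and the coat proteins of caveolae were followed as a group of 7 genes, *Cav1*, *Cav2*, *Cav3*, *Ptrf*, *Sdpr*, *Prkcdbp* and *Ehd2*, measured by 10 of the 41012 gene probes on the array. The genes were chosen by name with earlier results of these data known, every probe carrying 1 of these names was kept, and the probes of a gene were numbered by their mean log2 signal over all 26 arrays. RNA came from rat multipotent adult progenitor cells (rMAPCs), Oct4-expressing clonal lines from the bone marrow of female Fischer rats aged 3 weeks. The lines Cl19 and 3c3 were differentiated toward smooth muscle in basal medium without serum, to which TGFβ1 and PDGF-BB were added, and profiled at the start (d0) and on d2, d4 and d6, on 3 arrays per line and day. As positive control, RNA of primary smooth muscle cells (SMCs) was hybridized on 2 arrays, which the sample labels describe as commercial aortic RNA and the methods as primary SMC RNA from another supplier, and these descriptions could not be reconciled.

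Caveolae are flask-shaped pits of the plasma membrane, rich in cholesterol, that act as membrane reserves, sites of endocytosis and platforms for receptors, and they are abundant in smooth muscle, endothelium and adipocytes. Caveolins are hairpin proteins of the inner leaflet, and *Cav1* is needed for caveolae outside striated muscle and *Cav3* in striated muscle, while *Cav2* joins *Cav1* in hetero-oligomers. Cavins coat the pit from the cytosol: *Ptrf* (cavin-1) is required for its formation, *Sdpr* (cavin-2) shapes the membrane and *Prkcdbp* (cavin-3) binds protein kinase C delta. *Ehd2* is an ATPase that sits at the neck and holds the caveola at the surface.

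*Cav1* had 3 probes and *Cav3* 2, whereas the other 5 genes had 1 each. On the rat assembly rn4, the first *Cav1* probe lay at chr4:42986933-42986992, the second at chr4:42986928-42986987 and the third at chr4:42987853-42987912, all on the plus strand. The first 2 overlapped by 55 bases and are therefore no independent measurements of *Cav1*, while the third started 920 bases downstream of the first. The first 30 of their 60 bases are shown because the *Cav1* comparison turns on them, with capitals for the stretch that probes 1 and 2 share.
Cav1 probe 1: TGACAAAATATTGGTTTTACCGCTTGCTGT
Cav1 probe 2: cactgTGACAAAATATTGGTTTTACCGCTT
Cav1 probe 3: cggaaaacaaagcatacaaaatctacttgc

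The *Cav2* probe lay at chr4:42938509-42938568, 48424 bases before the first *Cav1* probe on the same chromosome. The *Cav3* probes lay at chr4:148309387-148309446 and chr4:148309840-148309899, *Ptrf* at chr10:89894020-89894079, *Sdpr* at chr9:47384687-47384746, *Prkcdbp* at chr1:163213135-163213194 and *Ehd2* at chr1:76292694-76292753, the last 4 on the minus strand. Whether a probe lies in the coding part or in a UTR was not determined here. The *Cav3* probes are shown because only 1 of them was above background in the rMAPCs. No run of over 8 bases was shared between probes of different members, and probe 1 of *Cav3* shared at most 7 bases in a row with a *Cav1* probe.
Cav3 probe 1: tgtctacactgctgggtgttccactggccc
Cav3 probe 2: ggttccttaagaggcagctatcacaaggct

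Levels are log2 of the scanner signal after quantile normalization over all arrays, and they compare samples within a probe, not probes with each other. "Well above background" is the scanner software's call for a feature. By that call 52.75% to 61.36% of gene features were measured on the Cl19 arrays, 43.23% to 57.12% on the 3c3 arrays and 43.59% to 44.52% on the primary SMC arrays. On the 4 arrays of replicate 3 of 3c3 the negative controls were brighter (28.27 to 44.51 scanner units, against at most 13.98 on all other arrays). Replicate 1 of Cl19 on d2 lay closer to the 3c3 d2 arrays (root mean square difference 0.382 to 0.538 log2 units over the tested probes) than to the other Cl19 d2 arrays (0.876 to 0.917), so Cl19 d2 is also given without it. The methods call the replicates biological, but no source used here says whether they were separate cultures, so p-values measure the spread between these arrays, which may be technical in part.

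*Cav1* moved in opposite directions in the lines. In Cl19, probe 1 read 3.43, 3.58 and 4.10 on d0 and 1.66, 1.75 and 2.32 on d6. In 3c3, it read 3.25, 1.93 and 3.08 on d0 and 6.56, 5.70 and 6.10 on d6. All d6 arrays of Cl19 thus lay below all of its d0 arrays, and all d6 arrays of 3c3 lay above all of its d0 arrays. From d0 to d6, the probe changed by -1.79 (SE 0.40, n = 3 and 3) in Cl19, with an adjusted p of 9e-04, and by 3.37 (SE 0.40, n = 3 and 3) in 3c3, with an adjusted p of 1.5e-06 (limma). Signs were alike on all 3 slides of each line, which carry the 4 days of a replicate side by side.

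The other *Cav1* probes gave the same picture. Probe 2 fell from a mean of 3.23 ± 0.58 (SD, n = 3) to 0.94 ± 0.30 in Cl19 and rose from 1.70 ± 0.84 to 6.00 ± 0.39 in 3c3. Probe 3 fell from 2.59 ± 0.21 to 0.56 ± 0.05 in Cl19 and rose from 1.40 ± 0.49 to 5.39 ± 0.02 in 3c3. Their changes were -2.29 and -2.03 in Cl19 (adjusted p 9.4e-05 and 6.3e-06) and 4.29 and 3.99 in 3c3 (adjusted p 8.6e-08 and 2.2e-09).

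Much of this lay near the background. In Cl19, probe 1 was well above background on 3 of 3 arrays on d0 and on 2 of 3 on d6, and probes 2 and 3 on 2 of 3 arrays on d0 and on none on d6. In 3c3, probe 1 was above it on 1 of 3 arrays on d0, and probes 2 and 3 on none, while all 3 probes were above it on every array from d2 on. Folds with a dim group, here and below, are therefore given as lower bounds that hold for the quantile-normalized values only. Log2 changes are given as fitted, also where a group was dim. For the bounds, each dim array was set to the higher of its own value and the lowest probe well above background on it. By this bound *Cav1* was at least 2.83-fold, 2.45-fold and 1.58-fold lower on d6 than on d0 in Cl19 (probes 1, 2 and 3), and at least 9.15-fold, 9.60-fold and 6.57-fold higher in 3c3. The Cl19 fall did not pass the threshold after normexp background correction with an offset of 50, which compresses dim signals: the changes were -0.20, -0.15 and -0.11, with adjusted p of 0.072, 0.38 and 0.15. The rise in 3c3 passed it there, with 0.96, 1.02 and 0.61.

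The difference between the lines in the *Cav1* change was tested itself. Each line was scanned on 1 day of its own, so line and scan day cannot be told apart. A change from d0 compares arrays of the same scan day, and a part of the scan day in the difference was not tested. Cl19 minus 3c3 was -5.16 (SE 0.57) for probe 1, -6.58 (SE 0.58) for probe 2 and -6.02 (SE 0.40) for probe 3, with adjusted p of 3.6e-06, 2.5e-07 and 9.6e-09. It passed the threshold under all 20 alternatives. In these the value ranged from -5.42 to -1.16 for probe 1, -7.06 to -1.17 for probe 2 and -6.55 to -0.72 for probe 3. The smallest differences were those with normexp. The lines also differed in timing. In 3c3, probe 1 stood at 3.92 ± 0.53 (SD, n = 3) on d2, 6.23 ± 0.18 on d4 and 6.12 ± 0.43 on d6, so that d4 and d6 overlapped and neither overlapped with d2. In Cl19, it stood at 3.47 ± 0.55 on d2 (3.27 without replicate 1), 2.72 ± 0.83 on d4 and 1.91 ± 0.36 on d6, and arrays of neighbouring days overlapped throughout. Primary SMCs stood above every rMAPC array, at 9.78 and 9.73.

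**Figure D1:**
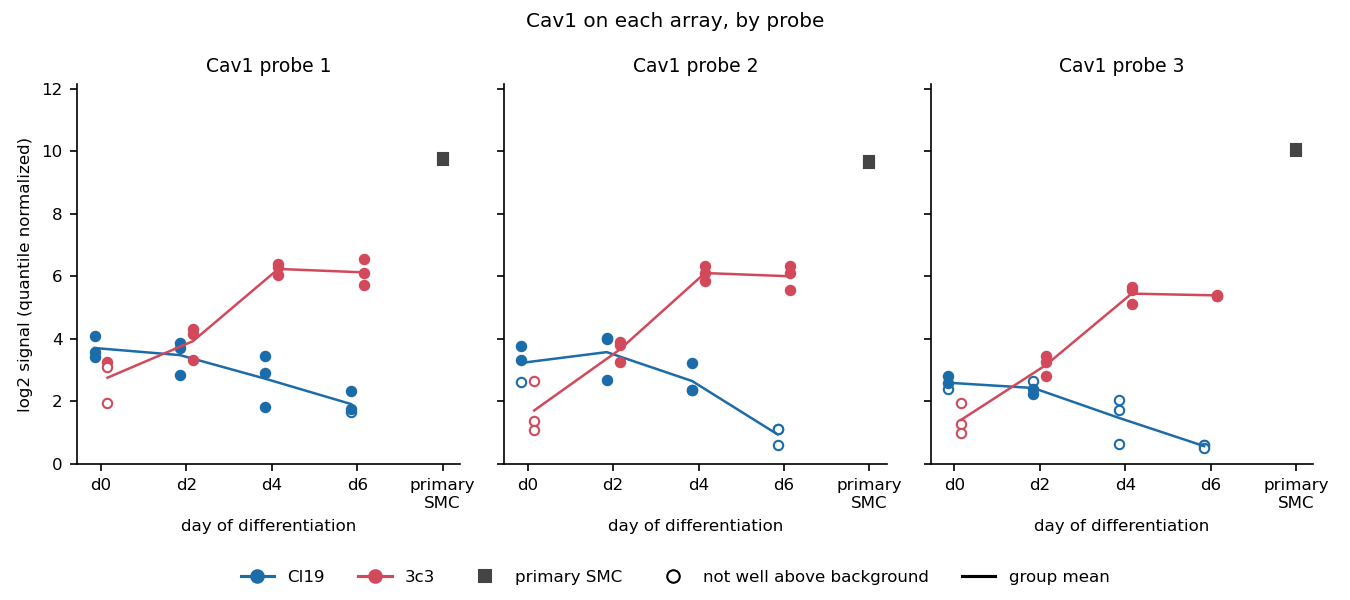
Log2 signal (quantile normalized) of the 3 *Cav1* probes on every array, by day of differentiation for Cl19 and 3c3 and for primary SMCs; lines join group means and open symbols were not well above background. In all 3 panels Cl19 ends lower and 3c3 ends higher on d6 than on d0, and both stay below primary SMCs.

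*Cav2*, the partner of *Cav1*, was barely detected in the rMAPCs. None of the 12 Cl19 arrays measured its probe well above background, and its values there ran from 0.38 to 1.85. In 3c3, the d0 arrays read 0.45, 4.61 and 0.51 and the d6 arrays 4.12, 4.07 and 3.35. Replicate 2 on d0 alone was above background among the d0 arrays and stood higher than every d6 array, while the other d0 arrays lay below them. With all arrays the 3c3 change was 1.98 (SE 0.72, adjusted p = 0.029), at least 1.35-fold, and without that array the value was 3.35 with an adjusted p of 4.2e-06. The call was lost under 9 of 15 alternatives, among them the floor for dim probes (0.72, adjusted p = 0.12), the fit on d0 and d6 alone (adjusted p = 0.22), and leaving out replicate 1 of 3c3 d0 (1.28, adjusted p = 0.18). The difference between the lines was -2.44 (SE 1.02, adjusted p = 0.12), and -3.81 (adjusted p = 0.00011) without replicate 2 of 3c3 d0.

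*Cav3*, the muscle caveolin, did not pass the threshold over time in either line on either probe (adjusted p 0.82 and 0.91 in Cl19, 0.95 and 0.91 in 3c3, limma F-test). Probe 1 was well above background on every rMAPC array, with group means from 4.31 to 4.87, and its change from d0 to d6 was -0.43 (95% interval -1.27 to 0.42) in Cl19 and 0.15 (-0.69 to 1.00) in 3c3. Probe 2 was at background on every rMAPC array, with group means from 0.29 to 0.38. The probes thus disagreed on whether *Cav3* RNA was measurable in rMAPCs. Both probes were well above background in primary SMCs, at 12.73 and 12.68 on probe 1 and at 13.27 and 13.26 on probe 2.

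*Ptrf*, the cavin without which caveolae do not form, fell in Cl19. The d0 arrays read 4.45, 4.99 and 4.55 and the d6 arrays 2.51, 3.91 and 2.11. The groups did not overlap, and the change was -1.82 (SE 0.44, n = 3 and 3, adjusted p = 0.0017), at least 3.52-fold, with 2 of 3 d6 arrays above background. The fall was already past the threshold on d4 (-1.48, adjusted p = 0.0093), a call lost in the deposited values without quantile normalization (adjusted p = 0.083). The d6 call was lost with the methods' t-test (adjusted p = 0.066), and with normexp the change was -0.34 (adjusted p = 0.016). In 3c3, the d0 arrays read 4.05, 5.31 and 3.07 and the d6 arrays 5.12, 5.52 and 4.60, which overlap. There the change was 0.94 (95% interval 0.02 to 1.86, adjusted p = 0.087), and 1.51 (adjusted p = 0.0052) without replicate 2 of d0. Cl19 minus 3c3 was -2.76 (SE 0.62, adjusted p = 0.0036), and it passed the threshold under all 20 alternatives (highest adjusted p 0.04). *Ptrf* and *Cav1* were therefore the members whose change differed between the lines by the test.

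*Sdpr* was measured in primary SMCs only. No rMAPC array measured its probe above background, and it read at most 1.36 there. Both primary SMC arrays did measure it, at 4.72 and 4.43.

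*Prkcdbp* dipped on d2 in both lines and was back at its starting level on d6. In Cl19, the d0 arrays read 12.25, 12.21 and 12.42, the d2 arrays 10.51, 10.56 and 10.45 and the d6 arrays 12.56, 12.70 and 11.57. In 3c3, the d0 arrays read 12.01, 11.35 and 11.46, the d2 arrays 10.33, 9.96 and 10.36 and the d6 arrays 11.90, 11.87 and 11.50. All d2 arrays lay below all d0, d4 and d6 arrays of their line. The change from d0 to d2 was -1.79 (SE 0.26, adjusted p = 4.6e-05) in Cl19, a fold of 3.45, and -1.39 (SE 0.26, adjusted p = 0.00072) in 3c3, a fold of 2.62. Without replicate 1 the Cl19 d2 mean stayed at 10.51.

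From d0 to d6, the *Prkcdbp* change was -0.02 (95% interval -0.56 to 0.52) in Cl19 and 0.15 (-0.39 to 0.70) in 3c3, and the lines differed by -0.17 (-0.94 to 0.60). On d4, it was -0.73 in Cl19 (adjusted p = 0.026), a call lost without replicate 1 or 3 of d0, without replicate 1 or 2 of d4, and with the methods' t-test (adjusted p 0.051 to 0.15), and -0.54 in 3c3 (adjusted p = 0.11). *Prkcdbp* was well above background on all 26 arrays, and its d2 dip passed the threshold in both lines under every alternative, with adjusted p up to 0.0064 in Cl19 and 0.03 in 3c3.

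*Ehd2*, at the caveolar neck, rose in Cl19. The d0 arrays read 3.92, 3.59 and 3.83 and the d6 arrays 4.98, 6.09 and 4.59, which do not overlap. The change was 1.44 (SE 0.40, n = 3 and 3, adjusted p = 0.0051), a fold of 2.72, and it did not pass with the methods' t-test (adjusted p = 0.069). With normexp it was 0.43 (adjusted p = 0.01). Its d2 mean was 3.42 ± 0.78 (SD, n = 3), and 2.97 without replicate 1, which at 4.32 stood apart from the other d2 arrays. In 3c3, the d0 arrays read 4.77, 4.09 and 4.48 and the d6 arrays 5.72, 4.55 and 5.30, which overlap, and the change was 0.74 (95% interval -0.10 to 1.58, adjusted p = 0.14). Cl19 minus 3c3 was 0.70 (-0.49 to 1.89, adjusted p = 0.51), so *Ehd2* was not shown to differ between the lines.

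**Figure D2:**
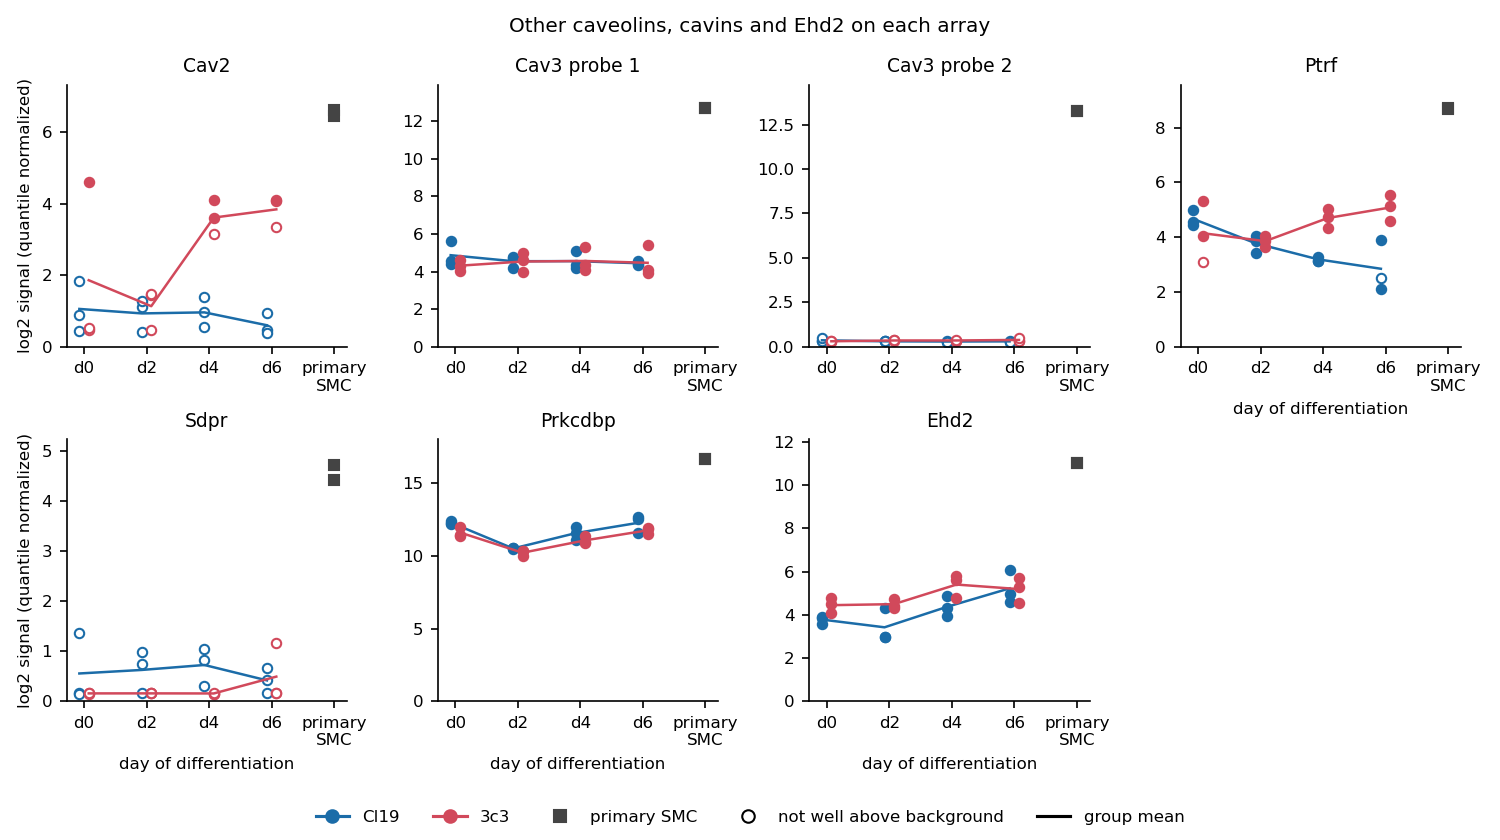
Log2 signal (quantile normalized) of *Cav2*, *Cav3*, *Ptrf*, *Sdpr*, *Prkcdbp* and *Ehd2* on every array, by day of differentiation and for primary SMCs; lines join group means, open symbols were not well above background, and the vertical scale differs between panels. *Prkcdbp* dips on d2 in both lines, *Ptrf* parts between them, and in every panel primary SMCs stand above the rMAPCs.

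Counted together, 4 of the 10 member probes fell from d0 to d6 in Cl19 (3 of *Cav1* and *Ptrf*), where 30.3% of all tested probes fell, and 1 rose (*Ehd2*), where 22.0% of all rose. In 3c3, 4 rose (3 of *Cav1* and *Cav2*), against 19.7% of all tested probes, and none fell, against 28.6%. The median change of the 10 probes was -0.44 in Cl19, where that of all tested probes was -0.20, and 0.84 in 3c3, where that of all was -0.21. By gene, 3 of 7 members changed in Cl19, where 26% of all genes rose and 31.5% fell, and 2 of 7 in 3c3, where 23.6% rose and 29.6% fell. In this fit the change passed in both lines for *Cav1* alone, with opposite signs. In the deposited values without quantile normalization 6 probes rose in 3c3, and *Ehd2* (1.93, adjusted p = 0.00037, in Cl19 and 1.18, adjusted p = 0.02, in 3c3) and *Ptrf* (-1.38, adjusted p = 0.032, and 1.31, adjusted p = 0.045) passed in both lines too.

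The earlier days were tested against the same d0 arrays. On d2, 1 member probe passed in Cl19 (*Prkcdbp*, lower), against 22.6% of all tested probes in either direction, and 4 in 3c3 (*Cav1* higher on 3 probes, *Prkcdbp* lower), against 19.1%. In Cl19, *Cav1* probe 1 did not pass on d4 (-0.98, adjusted p = 0.051), but did with the slide as a replicate block (adjusted p = 0.0059). The Cl19 call of *Cav1* probe 3 on d4, where no d4 array was above background, was lost with normexp (-0.08, adjusted p = 0.35), in the fit on the compared groups (adjusted p = 0.05) and with the methods' t-test (adjusted p = 0.12). The 3c3 rise of *Cav1* on d2 was 1.17, 1.94 and 1.77 (adjusted p 0.048, 0.002 and 0.00017), and on all 3 probes it was lost with normexp (adjusted p 0.12 to 0.38) and with the floor (0.077 to 0.19). Probe 1 kept this call under only 4 of 15 alternatives, probe 2 under 11 and probe 3 under 13. On d4, 3 passed in Cl19 (*Cav1* probe 3, *Ptrf* and *Prkcdbp*, all lower), against 47.3%, and 3 in 3c3 (*Cav1*, all higher), against 37.0%. Over the whole course the limma F-test called 6 probes in Cl19 (*Cav1*, *Ptrf*, *Prkcdbp* and *Ehd2*), against 54.3% of all, and 5 in 3c3 (*Cav1*, *Cav2* and *Prkcdbp*), against 50%. The difference between the lines in the change to d6 passed for 4 probes, against 17.4%. Since the days share their d0 arrays, their calls are no separate evidence.

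**Figure D3:**
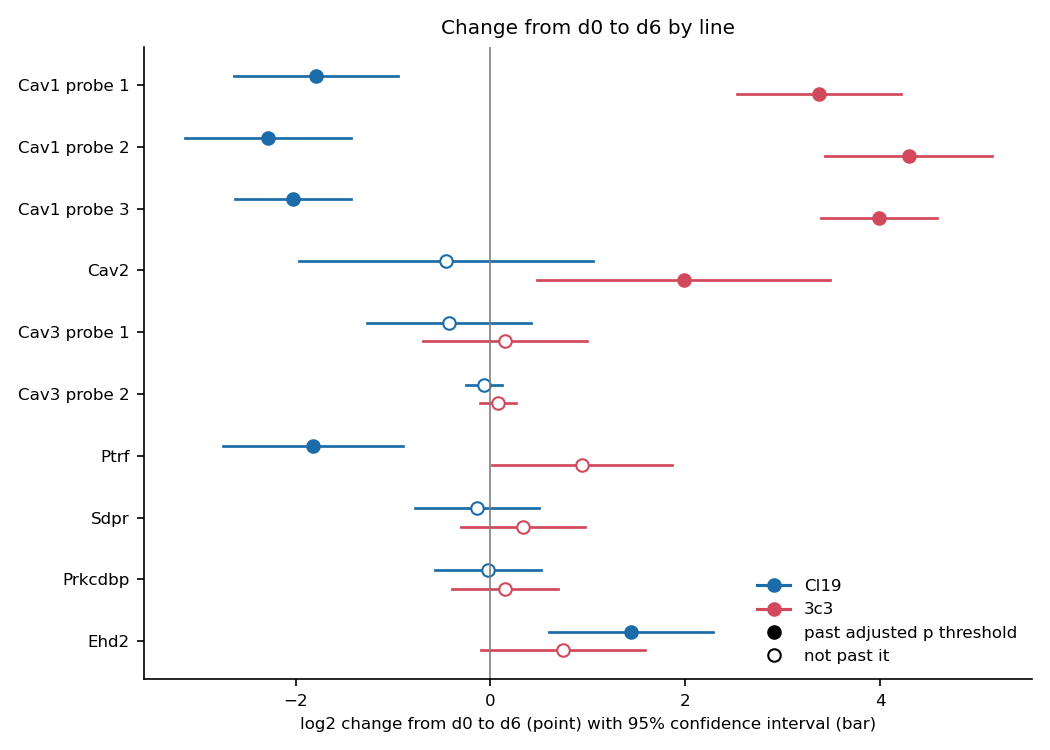
Log2 change from d0 to d6 of the 10 member probes in Cl19 and 3c3, with its 95% confidence interval; filled points passed an adjusted p of 0.05. The *Cav1* probes run from -2.29 to -1.79 for Cl19 and from 3.37 to 4.29 for 3c3, and their intervals do not meet.

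Every member was higher in primary SMCs than on d6 of either line, and all 10 probes passed the threshold against both, where 32.8% of all tested probes were higher than in Cl19 and 33.4% higher than in 3c3. The probes of *Cav2* and *Sdpr* and probe 2 of *Cav3* were above background throughout no rMAPC group. They entered the fit only through the primary SMC arrays, where they are high, so their calls here follow in part from that filter. Against d6 of Cl19, *Cav1* probe 1 was at least 188-fold higher and *Ptrf* at least 57.0-fold. Against d6 of 3c3, *Cav1* probe 1 was 12.4-fold and *Ptrf* 12.1-fold higher (3.63, SE 0.45, and 3.60, SE 0.49). *Cav2* was at least 24.3-fold higher than in Cl19 and at least 5.30-fold higher than in 3c3, and *Sdpr* at least 6.24-fold and 3.36-fold. *Prkcdbp* was 20.9-fold and 29.9-fold higher, and *Ehd2* 55.6-fold and 56.9-fold. For *Cav3*, probe 1 gave 307-fold and 303-fold, and probe 2 at least 2584-fold and 1390-fold.

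The size of these folds depended on the processing, while all 10 probes passed in both comparisons with quantile normalization, 75th percentile scaling and normexp. With 75th percentile scaling, *Prkcdbp* was 6.09 log2 units higher than in Cl19 (4.39 with quantile normalization) and 6.50 higher than in 3c3 (4.90). With normexp, the differences from Cl19 and 3c3 were 1.17 and 0.93 for *Cav2*, 0.66 and 0.65 for *Sdpr*, 3.78 and 2.75 for *Cav1* probe 1, 2.78 and 2.27 for *Ptrf* and 4.31 and 4.35 for *Ehd2*. The lower bounds above therefore hold for the quantile-normalized values only.

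Whether the 2 primary SMC arrays held RNA of 1 source is not settled by the descriptions. They were scanned on a day of their own, so source, scan day and cell type cannot be told apart in these folds. The 2 arrays were dimmer as scanned. In the deposited values, which are not normalized between arrays, the median of all tested probes was 2.17 log2 units lower than on d6 of Cl19 (a median change of -2.17) and that of the members 4.62 higher. Against 3c3 these medians were -2.09 and 2.03, and *Cav2* (0.45, adjusted p = 0.63) and *Ptrf* (1.25, adjusted p = 0.055) did not pass there. The *Cav1* probes passed against 3c3 at 1.28, 1.29 and 2.34 (adjusted p 0.013, 0.012 and 2.2e-05, limma). With quantile normalization these differences were 3.63, 3.65 and 4.66. Between bulk samples, fewer cells of a type and less RNA per cell cannot be told apart.

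Markers of cell types known for caveolae were read beside the members. From d0 to d6, 26% of all tested genes rose and 31.5% fell in Cl19, and 23.6% rose and 29.6% fell in 3c3. Of the smooth muscle markers, 9 had a probe, and all 9 were measured in primary SMCs. From d0 to d6, 5 of them rose in Cl19, and 6 rose and 1 fell in 3c3, with rises of *Tagln* (6.54 and 5.95) and *Cnn1* (3.56 and 2.67), so that *Cav1* fell in Cl19 while these rose. The log2 of the summed signal of 10 endothelial markers ran from 8.35 to 8.61 on d0 and from 6.68 to 7.13 on d6 in Cl19, and from 7.60 to 7.81 and from 8.01 to 8.21 in 3c3. In primary SMCs it ran from 10.55 to 10.63, where *Eng* stood at 10.54 and 6 of the 10 markers were above background on no array. Such a sum follows the brightest probes of a list and is no measure of the share of a cell type. In Cl19, 4 of the 8 tested fell, among them *Tek* (-5.36, above background on no d6 array). In 3c3, *Tie1* (1.54) and *Eng* (1.24) rose and *Pecam1* fell (-2.11, above background on 2 of 3 d6 arrays). Thus 4 of 8 fell in Cl19 and 5 of 8 did not pass in 3c3, with median changes of -1.54 and 0.16, and the part of this list in the *Cav1* result was not tested. *Emcn* was above background on no array of 3c3, and *Erg* on no array of Cl19.

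Of 8 adipocyte markers, *Fabp4*, *Plin1* and *Lep* were above background on no array of any group. The summed level of this list was 8.25 to 8.58 on d0 and 5.89 to 6.17 on d6 in Cl19, where *Pparg* fell (-6.16) and *Retn* rose (2.72) among the 4 tested. In 3c3 it was 7.60 to 7.81 and 8.01 to 8.42, and *Cidec* (4.45) and *Retn* (2.02) rose. *Pparg* was above background on 1 of 3 d6 arrays of Cl19. *Cidec* was above it on no d0 array of 3c3, and *Retn* on no d0 array of either line. Of 9 striated muscle markers, *Myh6*, *Myh7*, *Myod1*, *Myog* and *Ckm* were above background on neither primary SMC array, where both *Cav3* probes were. *Tnnt2* (7.12) and *Tnni3* (4.69) were above background on both of these arrays, and *Actc1* and *Actn2* on 1 of 2. The summed level of this list was 7.76 to 7.99 in primary SMCs, 13.85 to 14.97 on d6 of Cl19 and 10.08 to 11.22 on d6 of 3c3. From d0 to d6, *Actc1* (6.13 in Cl19 and 3.84 in 3c3) and *Tnnt2* (3.02 and 1.40) rose in both lines. *Actc1* was above background on 2 of 3 d0 arrays of 3c3. The other 4 of the 6 tested did not pass in either line, and neither did *Cav3*.

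The epithelial, fibroblast, progenitor and blood lists complete the picture of the samples. Of 7 epithelial markers, all 7 were above background in every rMAPC group and 3 in primary SMCs, and 7 rose in Cl19 and 6 in 3c3. Of 8 fibroblast markers all 8 were measured in primary SMCs, and 4 rose in Cl19 and 1 in 3c3, with 1 fall in each. Of 5 progenitor markers 5 fell in Cl19 and 4 in 3c3, and *Pou5f1* (Oct4) changed by -9.15 and -4.11. On d6 of Cl19, *Pou5f1* was above background on 1 of 3 arrays. Of the 3 blood markers tested, 1 fell in Cl19 and none passed in 3c3. All 3, *Ptprc* (5.11), *Cd68* (4.69) and *Cd14* (9.65), were above background on both primary SMC arrays. *Cd68* and *Cd14* were so throughout every rMAPC group too, and *Ptprc* throughout none. None of these lists was tested for a part in the members' changes.

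Genes that work with caveolae were read from the same fit, with the brightest probe of each gene. Of 13 tested genes for caveola assembly and the neck, 6 rose and 2 fell in Cl19, and 4 rose and 1 fell in 3c3. For comparison, 26% of all genes rose and 31.5% fell in Cl19, and 23.6% rose and 29.6% fell in 3c3. The list's median change was 0.61 and 0.53, where that of all genes was -0.14 and -0.12. *Ehd4*, a relative of *Ehd2*, rose by 0.95 in Cl19 and 1.79 in 3c3, and *Dnm2*, the dynamin that cuts vesicles from the membrane, by 0.61 and 0.53. *Ehd3*, another relative, fell by at least 5.85-fold and 2.68-fold.

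All 5 tested genes of the flotillin and stomatin family changed in both lines, 4 up and 1 down. Among all genes, 26% rose and 31.5% fell in Cl19, and 23.6% rose and 29.6% fell in 3c3. *Flot1*, which marks membrane domains without caveolin, rose by 1.82 in Cl19 (SE 0.22, adjusted p = 1.1e-06) and 2.52 in 3c3 (SE 0.22, adjusted p = 3.2e-08). *Stom*, a hairpin protein like the caveolins, rose by 2.00 and 2.13. *Stoml2*, a mitochondrial relative, fell (-0.68 and -0.88). The differences between the lines were -0.70 for *Flot1* (adjusted p = 0.15) and -0.14 for *Stom* (adjusted p = 0.87), which did not pass, and the *Cav1* difference did.

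Of 19 tested genes whose products bind caveolin or reside in caveolae, 11 rose and 3 fell in Cl19, and 10 rose and 7 fell in 3c3. Among all genes, 26% rose and 31.5% fell in Cl19, and 23.6% rose and 29.6% fell in 3c3. The 3c3 falls include *Pdgfrb* (-1.77), which was above background on no rMAPC array. The Cl19 rises include *Itpr1* (0.68), above background on no d0 array and on 1 of 3 d6 arrays. In 3c3, 4 fell with the floor for dim probes and 3 with the deposited values. *Plvap*, which forms the diaphragms of endothelial caveolae, rose by 1.5 in Cl19 (adjusted p = 0.021) and at least 112-fold in 3c3, a difference of -6.03 (adjusted p = 1.1e-05). *Nos3*, the endothelial nitric oxide synthase that caveolin-1 binds, did the reverse, with a rise of at least 36.2-fold in Cl19 against a change of 1.47 (adjusted p = 0.0084) in 3c3, where no d0 array was above background. *Plvap* was above background on neither primary SMC array. *Insr*, the insulin receptor, fell by at least 5.84-fold and 1.80-fold, and *Slc7a1*, an arginine transporter, changed by -2.51 and -1.36. With opposite signs in the lines, *Fyn*, a Src-family kinase, changed by 2.82 and -2.76 (at least 3.19-fold higher and 1.34-fold lower), and *Dlc1* by 1.22 and -3.57.

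Of 25 tested genes of cholesterol synthesis and uptake, none rose in Cl19 and 9 fell, and 4 rose and 7 fell in 3c3. Among all genes, 26% rose and 31.5% fell in Cl19, and 23.6% rose and 29.6% fell in 3c3, so the falls were near the general share. With the deposited values 3 of the list fell in 3c3, and with no filter for background 4. *Hsd17b7*, an enzyme of the synthesis pathway, changed by -1.55 and -1.24. The list's median change was -0.42 and -0.28, where that of all genes was -0.14 and -0.12.

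**Figure D4:**
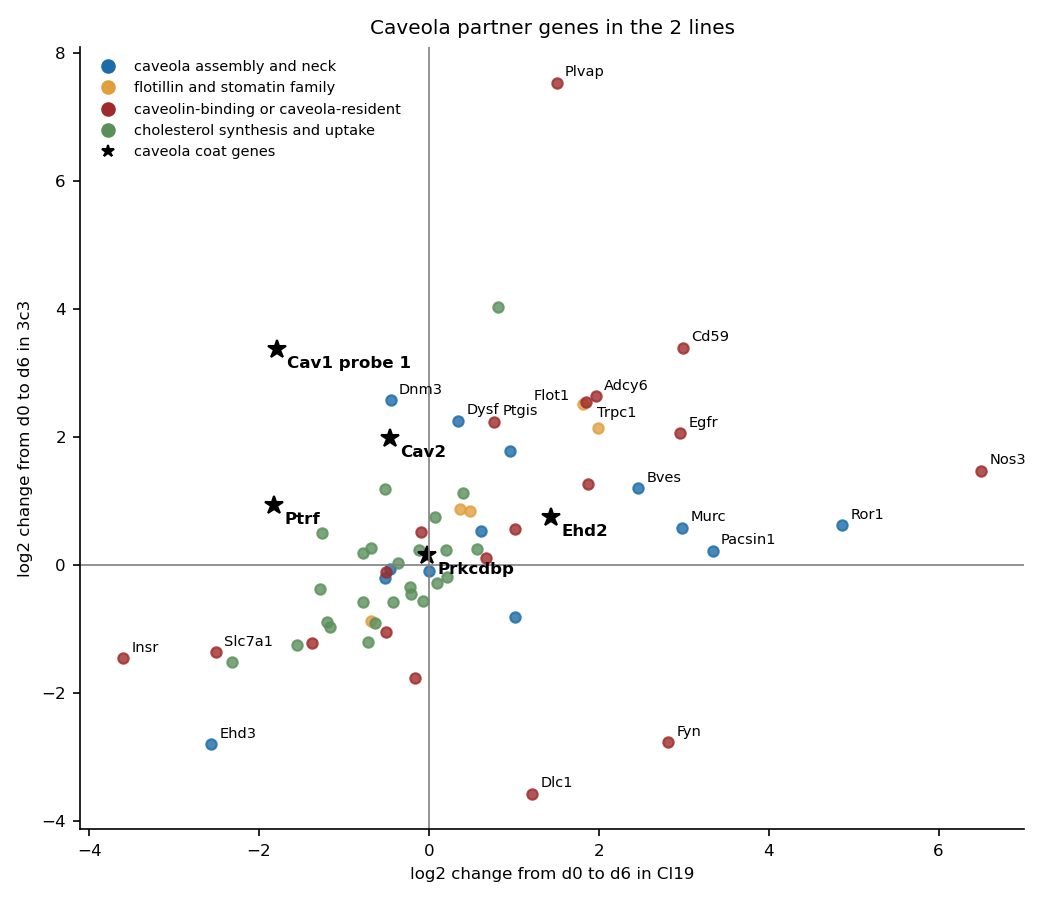
Log2 change from d0 to d6 in Cl19 (horizontal) and in 3c3 (vertical) of the tested genes of the 4 partner lists, 1 point per gene coloured by list, with 5 member probes as stars. *Cav1* lies at -1.79 and 3.37 in the upper left, *Flot1* in the upper right, and *Fyn* and *Dlc1* in the lower right.

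The genes whose 9 group means were most like those of *Cav1* probe 1, among 8267 probes with a gene symbol and a range of at least 2 log2 units, were *Cybasc3* (Pearson r 0.99 over 9 groups), *Cdc42ep5* (0.98), *Ltbp4* (0.97), *Nfkb2* (0.97) and *Rassf9* (0.97). All 5 were highest in primary SMCs, and the group means share arrays and normalization. *Rassf9* stood at 0.78 on d0 and 0.76 on d6 in Cl19, at 1.47 and 4.21 in 3c3, and at 7.71 in primary SMCs. It thus hardly moved in Cl19, where *Cav1* fell. Most like *Prkcdbp* were *RGD1303232* (0.98), *Rin2* (0.98), *Pcolce* (0.98), *Styxl1* (0.98) and *Cd44* (0.97). All 5 of these had their lowest mean of each line on d2. *Cd44*, for example, stood at 6.44, 3.43, 5.15 and 6.82 from d0 to d6 in Cl19 and 4.80, 1.69, 4.36 and 5.80 in 3c3.

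Promoter sequence of RefSeq on GRCr8 was at hand for *Cav1* (2 starts), *Cav2*, *Cav3*, *Ptrf*, *Sdpr* and *Ehd2*. None of these 7 windows held a CArG box, the element bound by serum response factor, on either strand, and 1.64% of all 33469 windows held one. This says only that these letters are not in the windows.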

How the data were processed

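RNA of 26 samples in 9 groups was hybridized with 1 Cy3-labeled sample per Agilent Whole Rat Genome array. The authors deposited the intensity of each feature as quantified with Agilent Feature Extraction 10.1.1.1 per the file headers, with background already subtracted, and a table of log2 values. That deposited log2 table equaled log2 of the scanner intensity to within 5.2e-14, so it holds no normalization between arrays. Probe coordinates are those of the scanner files on rn4.

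Log2 intensities of 43379 gene features were quantile-normalized as the methods describe, outlier features were left out and features of a probe averaged (*Cav1* probe 1 had 10 features). Quantile normalization removes changes shared by most genes. A fit in limma 3.58.1 (R 4.3.3) over the 9 groups took the 24442 probes that the scanner software called above background throughout 1 group or more. Tests were two-sided, p-values were adjusted by Benjamini-Hochberg over these probes, and 0.05 was the threshold. The fit was tested on simulated data.

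The 4 days of a replicate shared a slide, and deviations from the group means of such arrays correlated by over 0.1 in 18 of 18 pairs in 3c3 and 16 of 18 in Cl19 (lowest 0.062), and in 3 of 3 d0 and d6 pairs of each line. The replicate block was an alternative, beside other scalings, background correction, floors, filters, tests, probe choices and left-out arrays.

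The members, gene lists and the rule for named genes were chosen with earlier results of these data known. The rule took, per list, the 2 largest rises and falls past the threshold in both lines and genes with opposite signs, and 1 gene it names is not reported here. A gene was read from its brightest probe, and 11404 genes were tested. RefSeq (GRCr8) listed the symbol of 20729 of the 41012 gene probes. Protein sequences and exon annotation were not used here. The number of arrays limits the precision.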

Additional observations from a re-analysis of the deposited data

Results flagged for a closer look

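The change from d0 to d6 differed between Cl19 and 3c3 for 2 members by the test of the difference itself. For *Cav1*, Cl19 minus 3c3 was -5.16 on probe 1, -6.58 on probe 2 and -6.02 on probe 3, with a fall in 3 of 3 Cl19 slides and a rise in 3 of 3 3c3 slides. For *Ptrf* it was -2.76. No group held 4 arrays or more, so the gap of a single array within its group was not tested.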

How the results depend on the processing

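Of 1320 values of single member probes under alternatives, 1197 kept their direction and side of the threshold, 66 changed sign where neither value passed, 42 lost the call, 15 gained it, and none that passed reversed. Direct differences between the lines for *Cav1* and *Ptrf* kept their call under all alternatives run. Causes of the changes below were not tested.

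Counts of member probes changed as follows. With normexp, 1 probe fell to d6 in Cl19 (of 4 before), 1 passed on d2 in 3c3 (4) and 2 over time in Cl19 (6). With the deposited values, 5 passed on d4 in 3c3 (3). With the floor for dim probes, 1 passed on d2 in 3c3 (4). In a fit on the compared groups alone, 2 passed on d2 in Cl19 (1). With the methods' t-test, 1 passed on d4 in Cl19 (3), 0 rose to d6 in Cl19 (1) and 2 passed on d2 in 3c3 (4), and at an unadjusted 0.05 it called 5 of the 10 member probes on d6 in Cl19 and 3 in 3c3, where it called 54.7% and 45.7% of all tested probes. With the methods' area statistic, 0 passed over time in Cl19 (6, the limma F-test) and 3 in 3c3 (5). With arrays left out, 2 to 4 passed on d2 in 3c3, the lowest without replicate 3 of 3c3, and 3 to 5 on d4, the highest without replicate 2 of d0.

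Of the partner lists, 2 flotillin and stomatin genes rose in Cl19 with 75th percentile scaling (4). With the deposited values, 2 cholesterol genes rose in Cl19 (0), and 3 binding genes and 3 cholesterol genes fell in 3c3 (7 and 7). With the floor, 4 binding genes fell in 3c3 (7). With no filter, 1 assembly gene fell in Cl19 (2) and 4 cholesterol genes in 3c3 (7), and with the mean over a gene's probes 1 assembly gene fell in Cl19 (2).

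With 75th percentile scaling, the range of group means widened to 9.78 for *Cav1* probe 3 (from 9.48), 8.88 for *Cav3* probe 1 (8.39), 14.05 for *Cav3* probe 2 (12.98), 4.83 for *Sdpr* (4.42) and 7.89 for *Prkcdbp* (6.44). The median of all probes against primary SMCs was then 0.206 in both lines. Among calls, the share higher moved by over 10 points with the deposited values only: to 55.7% from 42.1% on d6 in Cl19, to 56.4% from 40.7% in 3c3, and to 8.3% and 9.5% from 45.9% and 46.7% against primary SMCs, and on d2 and d4 too (64.9% from 49.3%, 53.4% from 42.7%, 78.1% from 51.4% and 66.9% from 40% in Cl19 and 3c3). Their median change of all probes was 0.0975 and 0.0883 on d6.

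With the replicate block, 4 member probes passed on d4 in Cl19 (3 without it), the added one being *Cav1* probe 1 (-0.98, adjusted p = 0.0059), and 4 fell and 1 rose to d6. No other member call changed with this pairing. Levels of *Cav2*, *Sdpr*, *Cav3* probe 2 and low *Cav1* lie at the background, which limits their folds.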
